A study of Arabidopsis thaliana with 12 samples.

Results

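The 8 genes described here are the enzymes of proline synthesis and breakdown in Arabidopsis thaliana and the neighbours of both P5CS genes. They were picked by name: P5CS1 (AT2G39800), P5CS2 (AT3G55610), P5CR (AT5G14800), the proline dehydrogenase genes ERD5 (AT3G30775) and PDH2 (AT5G38710), P5CDH (AT5G62530), and AT2G39795 and AT3G55605, which lie next to P5CS1 and P5CS2. All 8 had a value, among 20869 genes with a value in any library, and all 8 passed the filter on low values (at least 1 FPKM in at least 3 libraries). They were chosen with the difference between the double mutant and wild type already known, so that comparison is described for every member without a test. For P5CS1 and both neighbours, whose levels in the double mutant led to the choice, each comparison with the double mutant is given without a test.

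The series compared poly-A RNA of whole seedlings of 4 genotypes in the Col background: the smxl4-1 smxl5-1 double mutant, the smxl5-1 single mutant, the smax1-2 single mutant and wild type (WT, Col-0). SMXL4, SMXL5 and SMAX1 belong to a family of proteins related to the SMAX1 repressor of karrikin signalling, and SMXL4 and SMXL5 are known for their part in phloem formation. The seedlings were 7 days old and grew on MS plates at 21 °C with 12 h of light and 12 h of darkness. Each genotype had 3 biological replicates, each of 15 pooled seedlings, which gave 12 libraries. Each mutant allele is represented by 1 line, and whole seedlings hold all tissues, so fewer cells of a type and less RNA per cell cannot be told apart.

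Plants make proline from glutamate in 2 enzymatic steps. P5CS, a bifunctional enzyme that is the controlling step, turns glutamate into a semialdehyde that closes into pyrroline-5-carboxylate (P5C), and P5CR reduces P5C to proline. In mitochondria, proline dehydrogenase oxidises proline back to P5C and P5C dehydrogenase returns P5C to glutamate. In Arabidopsis P5CS1 is the copy known for its induction by abscisic acid, salt and dehydration, while P5CS2 is known as the housekeeping copy of dividing tissue. ERD5, also called ProDH1, is known to be induced by proline and repressed under dehydration.

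The deposited tables list assembled transcript pieces per library, 27825 to 31919 of them, with FPKM values. A gene's level is the sum of the FPKM of its pieces, each weighted by the share of the reference length that the piece covers, and all levels below are on this scale in FPKM unless a log2 difference is named. A gene with no piece in a library is unlisted there, which is shown as 0 and is not proof that it was silent. The number of reads per library is not given in the sources used here, so depth is unknown. SMXL5 stood at 9.0 to 50.6 FPKM in the 6 libraries labelled smxl5-1, double mutant included, against 3.47 to 5.29 FPKM in the other 6. The gene named in the allele was thus higher, not lower, in its carriers, so its level set the labelled libraries apart without showing a loss of its RNA. SMXL4 did not separate the double mutant (2.75 to 4.85 FPKM) from WT (1.81 to 3.01 FPKM), and SMAX1 was at 15.1 to 18.2 FPKM in smax1-2 and 21.3 to 22.5 FPKM in WT. The leaf gene RBCS1A (19116 to 28523 FPKM) and the root gene CASP1 (16.6 to 47.6 FPKM) were present throughout. In smxl5-1 replicate 2 RBCS1A was lowest and CASP1, IRT1 (311 FPKM) and EXPA7 (10.9 FPKM), all root genes, were highest. The leaf genes RCA and CAB3 were not lowest there, and the root gene RHD6 was not highest. RHD6 was unlisted in WT replicate 2. Whether the mix of tissues differed was not tested. The seed storage gene SESA1 was unlisted in all 12 libraries. CRA1, also a seed gene, was listed only in double mutant replicate 2 (3.55 FPKM) and smxl5-1 replicate 1 (1.22 FPKM). Over 19656 genes, 8 of the 12 libraries correlated best with a library of another genotype. Among the members, smxl5-1 replicate 2 stood apart from the other smxl5-1 libraries, and results that rest on it are given with and without it.

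Both P5CS genes have the same arrangement. In the TAIR10.1 annotation P5CS1 lies at chr2:16598072-16603319 on the minus strand, and AT2G39795 (chr2:16596838-16598162) lies on the plus strand, so the genes point at each other and their 3′ ends overlap by 91 bases. P5CS2 (chr3:20624020-20629295, minus strand) and AT3G55605 (chr3:20622607-20624051, plus strand) also converge, with an overlap of 32 bases. The longest annotated transcripts of AT2G39795, AT3G55605 and P5CS2 have 1075, 1000 and 2745 bases. The references of the deposited pieces have 926, 938 and 2543 bases. How far the gene models behind the deposited values overlap is therefore not known. AT2G39795 and AT3G55605 both encode proteins of the mitochondrial glycoprotein family. The P5CS1 overlap depends on the transcript: the form of 2886 bases ends at position 16598164 and stops short of AT2G39795, whereas the form of 2623 bases ends at 16598072, inside its last exon. Pieces matched to the shorter form were found in 7 of 12 libraries and accounted for all of P5CS1 in 2 of them, smxl5-1 replicate 1 and WT replicate 1. Its share was 19.4%, 0% and 0% in the double mutant, 100%, 0% and 41.3% in smxl5-1, 51.5%, 0% and 67.3% in smax1-2, and 100%, 28.6% and 0% in WT. Each genotype thus held a library with none of the shorter form, and the 3 libraries with the highest share came from 3 genotypes.

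**Figure D1:**
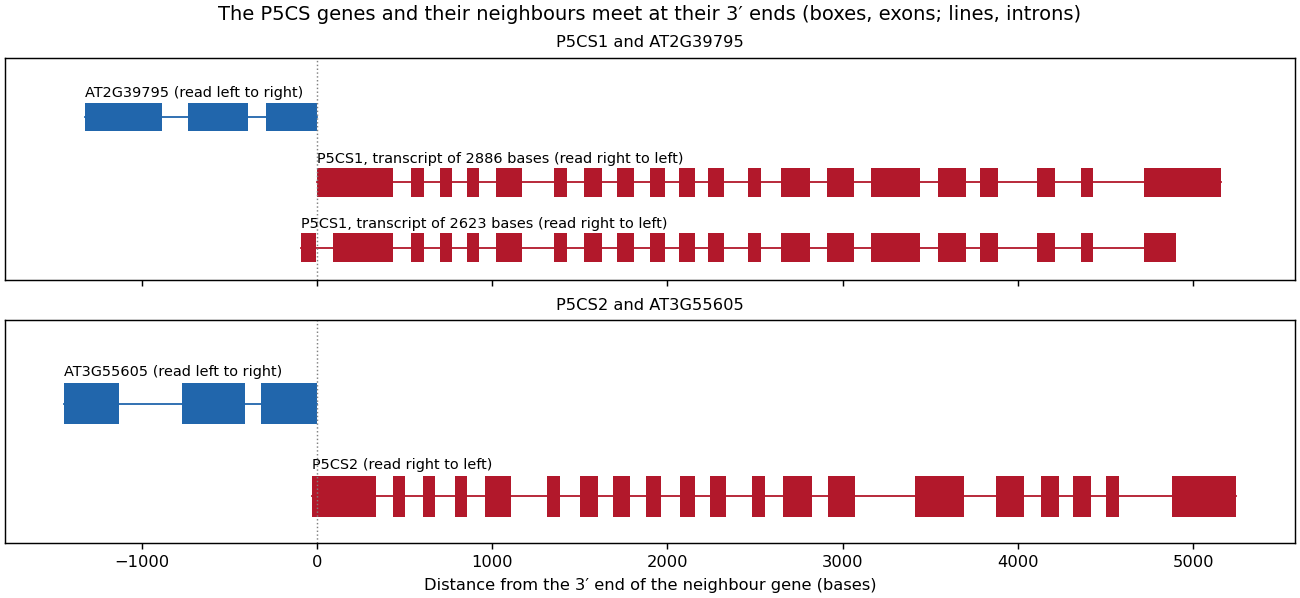
Exons (boxes) and introns (lines) of P5CS1 and P5CS2, in red, and of their neighbours, in blue, against the distance in bases from the neighbour's 3′ end. In both loci the genes meet at their 3′ ends, and of the P5CS1 transcripts drawn the one of 2623 bases crosses the neighbour's end.

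The 250 bases before the annotated starts of the controlling enzyme's copies and of the breakdown genes are printed because their levels were ordered differently over the genotypes. They were read from the TAIR10.1 genome, each is written 5′ to 3′ in the direction of its gene, and capitals mark matches, on either strand, to ACGTG (the core of abscisic acid response elements), CCGAC (the core of dehydration-responsive elements) or ACTCAT (the proline-response element known from the ERD5 promoter).
P5CS1 (chr2:16603320-16603569, minus strand): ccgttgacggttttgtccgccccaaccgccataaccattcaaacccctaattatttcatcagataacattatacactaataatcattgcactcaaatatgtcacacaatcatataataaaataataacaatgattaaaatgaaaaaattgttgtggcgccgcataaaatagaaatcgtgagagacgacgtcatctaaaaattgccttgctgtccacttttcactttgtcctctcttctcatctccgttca
P5CS2 (chr3:20629296-20629545, minus strand): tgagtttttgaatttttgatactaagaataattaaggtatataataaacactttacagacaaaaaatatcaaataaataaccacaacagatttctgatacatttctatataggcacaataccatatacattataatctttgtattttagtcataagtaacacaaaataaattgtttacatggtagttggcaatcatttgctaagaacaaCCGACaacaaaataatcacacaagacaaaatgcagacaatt
ERD5 (chr3:12451557-12451806, minus strand): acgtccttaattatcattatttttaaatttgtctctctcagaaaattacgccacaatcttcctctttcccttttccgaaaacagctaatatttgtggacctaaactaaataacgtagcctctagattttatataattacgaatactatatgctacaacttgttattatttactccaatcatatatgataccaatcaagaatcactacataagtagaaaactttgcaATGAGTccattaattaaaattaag
P5CDH (chr5:25103313-25103562, minus strand): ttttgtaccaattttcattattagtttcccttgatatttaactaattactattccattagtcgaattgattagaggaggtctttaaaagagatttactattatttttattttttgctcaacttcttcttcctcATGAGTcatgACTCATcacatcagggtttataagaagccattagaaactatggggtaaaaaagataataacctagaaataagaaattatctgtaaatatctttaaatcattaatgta
The ERD5 window held 1 copy of ACTCAT, read on the opposite strand as ATGAGT at position -24 from the start, and the P5CDH window held 2 copies, on opposite strands and close together. ACTCAT occurred in 12.3% of 27443 windows of the same length before annotated protein-coding genes. P5CS2 held CCGAC at position -41, a motif found in 12.0% of windows, and the P5CR window, not printed, held CCGAC at position -7 and ACGTG at position -51 (22.9% of windows). The P5CS1 window held none of the 3 motifs, and no marked motif overlapped another. That window lies before the start of the P5CS1 form of 2886 bases, at position 16603319. The form of 2623 bases starts at 16603061, and the bases before that start were not searched.

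P5CS1 spanned 16.6 to 77.7 FPKM over the 12 libraries. Its level was 56.2, 77.7 and 64.8 FPKM in the double mutant, 25.1, 67.3 and 27.6 FPKM in smxl5-1, 19.95, 29.9 and 17.4 FPKM in smax1-2, and 16.6, 18.5 and 18.2 FPKM in WT. All 3 double mutant libraries lay above all libraries of smax1-2 and WT, and smxl5-1 replicate 2 lay among them. The mean was 66.2 ± 10.8 FPKM in the double mutant and 17.8 ± 1.01 FPKM in WT (SD, n = 3 each), a ratio of 3.72 and a log2 difference of 1.83 ± 0.33 (SE). These values chose the gene and are given as a description. In smxl5-1 the mean of 40.0 ± 23.7 FPKM (SD, n = 3) rested on replicate 2, and without it the 2 other libraries averaged 26.4 FPKM. The log2 difference of smxl5-1 from WT was 0.98 (95% interval 0.25 to 1.71), with an adjusted p of 0.264 by limma with Benjamini-Hochberg adjustment over all genes, and 0.54 (adjusted p = 0.303) without replicate 2. All 3 smxl5-1 libraries were above all 3 WT libraries. P5CS1 in smax1-2 differed from WT by 0.28 (95% interval -0.45 to 1.02, adjusted p = 0.867), with overlapping libraries.

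P5CS2 was at 50.6, 44.8 and 46.5 FPKM in the double mutant, 37.1, 55.5 and 31.9 FPKM in smxl5-1, 39.3, 32.3 and 34.6 FPKM in smax1-2, and 38.4, 32.6 and 34.7 FPKM in WT. The double mutant lay above every smax1-2 and WT library and above smxl5-1 replicates 1 and 3, while smxl5-1 replicate 2 was the highest of all 12. Against smax1-2 the log2 difference of the double mutant was 0.41 (95% interval 0.03 to 0.79), which did not pass the adjusted threshold (limma, adjusted p = 0.375). Against smxl5-1 it was 0.22 (adjusted p = 0.564), and 0.45 (adjusted p = 0.0797) without smxl5-1 replicate 2. P5CS2 in smax1-2 and WT differed by 0.01 (95% interval -0.38 to 0.39). In 4 libraries, smxl5-1 replicates 1 and 2, smax1-2 replicate 1 and WT replicate 1, P5CS2 was assembled in 2 pieces. With the FPKM of pieces added up without their lengths, the difference from smax1-2 became -0.024 and that from smxl5-1 became -0.57. No double mutant library was split, so both directions depend on how pieces are weighted.

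Which P5CS copy was higher differed between the genotypes. The ratio of P5CS1 to P5CS2 was 1.11 to 1.74 in the double mutant, 0.677 to 1.21 in smxl5-1, 0.502 to 0.928 in smax1-2 and 0.433 to 0.568 in WT. Added together the copies reached 107 to 122 FPKM in the double mutant, 59.5 to 123 FPKM in smxl5-1, 52.0 to 62.2 FPKM in smax1-2 and 51.1 to 54.97 FPKM in WT. The highest sum of the 12 libraries was in smxl5-1 replicate 2. The levels of P5CS1 and P5CS2 over the 12 libraries had a Pearson correlation of 0.79 on the log2(FPKM + 1) scale, a description in which smxl5-1 replicate 2 and the double mutant share the high end.

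P5CR, the reductase that completes synthesis, was the most highly expressed member in every library. It was at 103, 122 and 106 FPKM in the double mutant, 127, 97.2 and 123 FPKM in smxl5-1, 119, 118 and 122 FPKM in smax1-2, and 97.1, 105 and 125 FPKM in WT. The libraries of the genotypes overlapped in every comparison, and the range over all libraries was 1.31-fold. The log2 difference of the double mutant from smxl5-1 was -0.06 (95% interval -0.33 to 0.21) and from smax1-2 -0.12 (95% interval -0.39 to 0.15). Differences of smxl5-1 and smax1-2 from WT were 0.08 (95% interval -0.19 to 0.35) and 0.14 (95% interval -0.13 to 0.41).

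**Figure D2:**
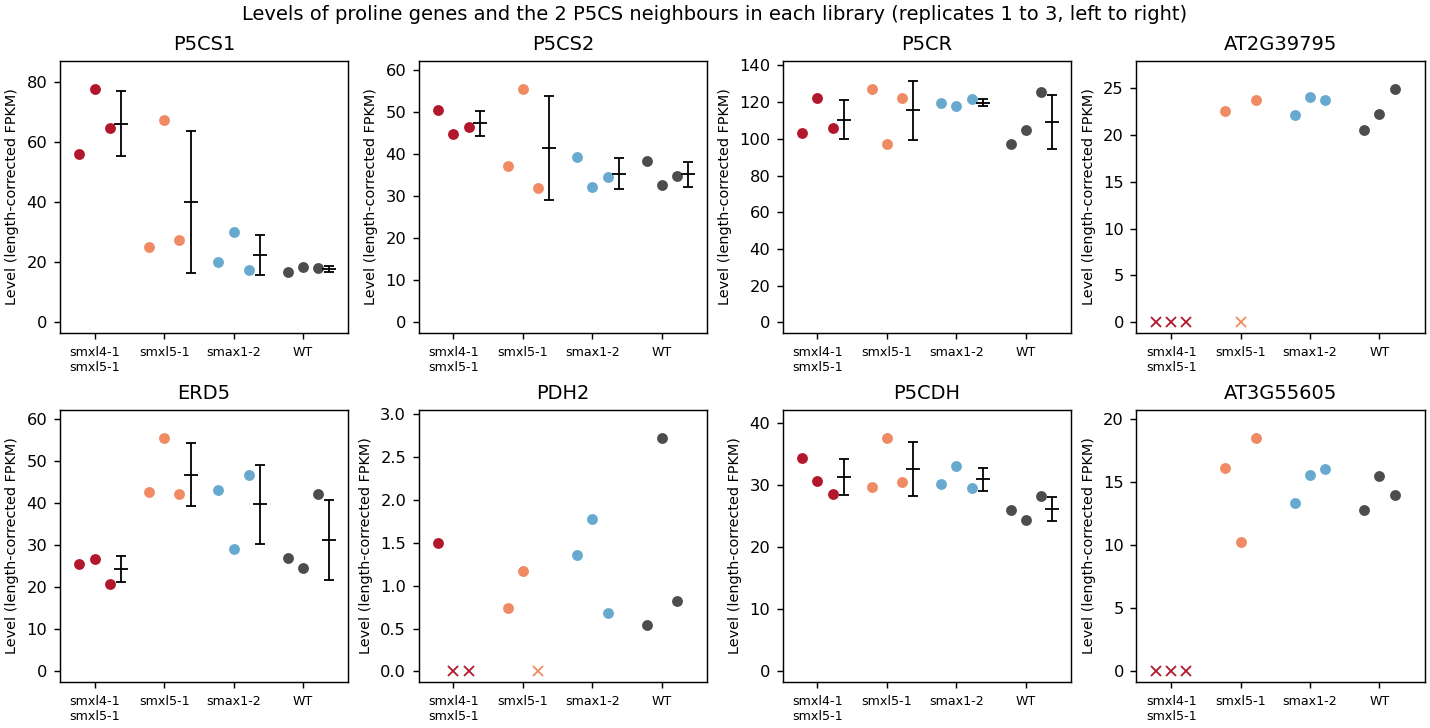
Level of each member in each library, in length-corrected FPKM, for the double mutant, smxl5-1, smax1-2 and WT; points are replicates 1 to 3 from left to right, crosses are libraries in which the gene was unlisted, and black marks are mean ± SD of 3 libraries for genes listed throughout. P5CS1 reached 56.2 to 77.7 FPKM in the double mutant, and both neighbours were unlisted in all 3 of its libraries.

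ERD5, the main proline dehydrogenase gene, gave the smallest p of the members tested, with its lowest levels in the double mutant and its highest in smxl5-1. Its level was 25.6, 26.9 and 20.9 FPKM in the double mutant, 42.8, 55.5 and 42.2 FPKM in smxl5-1, 43.3, 29.2 and 46.9 FPKM in smax1-2, and 27.0, 24.7 and 42.2 FPKM in WT. All double mutant libraries lay below all smxl5-1 and all smax1-2 libraries, and they overlapped WT. This separation rests on the length weighting: double mutant replicate 1 held 3 ERD5 pieces, whose unweighted FPKM add up to 65.9, against 42.9 to 58.0 FPKM in smxl5-1 and 31.4 to 49.6 FPKM in smax1-2. The mean of 24.5 ± 3.13 FPKM in the double mutant against 46.8 ± 7.53 FPKM in smxl5-1 (SD, n = 3 each) was a log2 difference of -0.91 (95% interval -1.41 to -0.40). Its adjusted p of 0.0644 by limma misses 0.05, and it was 0.147 without smxl5-1 replicate 2. With effective lengths in place of full lengths the difference was -1.0 and passed (adjusted p = 0.0254), and it also passed in the fits without WT replicate 3 (adjusted p = 0.0431) and without smax1-2 replicate 2 (adjusted p = 0.0493). When pieces were added up unweighted it was -0.46 and did not pass (adjusted p = 0.829). Against smax1-2 the double mutant differed by -0.66 (95% interval -1.16 to -0.15, adjusted p = 0.258), and by -0.24 (adjusted p = 0.957) when unweighted.

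Between smxl5-1 and WT, ERD5 differed by 0.59 (95% interval 0.09 to 1.10, adjusted p = 0.325 by limma), with WT replicate 3, at 42.2 FPKM, level with smxl5-1 replicate 3. Without smxl5-1 replicate 2 the difference was 0.47 (adjusted p = 0.448). ERD5 was assembled in more than 1 piece in 3 libraries, double mutant replicate 1 and WT replicates 1 and 3. In WT replicate 3 a piece of 505 bases stood at 88.1 FPKM and one of 1383 bases at 24.7 FPKM, and in WT replicate 1 a piece of 497 bases stood at 53.3 FPKM beside one of 1350 bases at 17.7 FPKM. The short pieces were thus the denser ones. Without weighting by length the difference between smxl5-1 and WT became -0.33, so its direction rests on the weighting. The smax1-2 libraries, each with a single ERD5 piece, averaged 39.8 ± 9.35 FPKM (SD, n = 3) and differed from WT by 0.35 (95% interval -0.16 to 0.85, adjusted p = 0.779).

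The ratio of P5CS1 to ERD5 sets the synthesis gene against the breakdown gene in the same library. It was 2.19 to 3.10 in the double mutant, 0.587 to 1.21 in smxl5-1, 0.371 to 1.03 in smax1-2 and 0.433 to 0.749 in WT. In all 3 double mutant libraries P5CS1 exceeded ERD5 at least 2.19-fold, and of the other 9 libraries only smxl5-1 replicate 2 and smax1-2 replicate 2 had more P5CS1 than ERD5. Both values come in part from P5CS1 and are a description.

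PDH2, the minor proline dehydrogenase gene, was near the limit of detection. It was at 1.5 FPKM in 1 double mutant library and unlisted in the other 2, at 0.736 and 1.17 FPKM in smxl5-1 and unlisted in replicate 3, at 1.37, 1.78 and 0.678 FPKM in smax1-2, and at 0.548, 2.72 and 0.825 FPKM in WT. No piece was longer than 597 bases of a reference of 1736. The intervals were wide, as in the double mutant against smax1-2 (log2 difference -0.71, 95% interval -1.88 to 0.46), and no difference was detectable.

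P5CDH, which completes the return of proline to glutamate, had its 3 lowest levels in WT, though no test of it passed. Its level was 34.4, 30.8 and 28.7 FPKM in the double mutant, 29.8, 37.6 and 30.5 FPKM in smxl5-1, 30.3, 33.1 and 29.5 FPKM in smax1-2, and 26.0, 24.5 and 28.2 FPKM in WT. All 9 mutant libraries (28.7 to 37.6 FPKM) were above all 3 WT libraries, also after median-of-ratios scaling (28.7 to 38.03 against 26.0 to 28.3 FPKM). The closest libraries were 28.7 FPKM in a mutant and 28.2 FPKM in WT. The share of all genes with this separation was not counted, so how unusual it is cannot be told. In each mutant genotype against WT alone, 17.3% to 19.1% of all genes had libraries fully apart, in either direction. With the FPKM of pieces added up without their lengths WT replicate 1, at 34.2 FPKM, lay above double mutant replicate 3 (31.4 FPKM), smxl5-1 replicates 1 and 3 (32.2 and 33.0 FPKM) and smax1-2 replicate 3 (31.9 FPKM), so the separation rests on the weighting. The log2 difference from WT was 0.24 in the double mutant, which has no test, 0.30 in smxl5-1 (95% interval 0.06 to 0.54, adjusted p = 0.302 by limma) and 0.23 in smax1-2 (95% interval -0.01 to 0.48, adjusted p = 0.728). These 3 differences share the WT libraries, and neither test passed. Without smxl5-1 replicate 2 the difference of smxl5-1 from WT was 0.20 (adjusted p = 0.423). The median log2 difference of all tested genes from WT was itself 0.07 in the double mutant, 0.07 in smxl5-1 and 0.09 in smax1-2. Among the mutants P5CDH differed by at most 0.07 (95% interval -0.18 to 0.31, smxl5-1 against smax1-2).

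**Figure D3:**
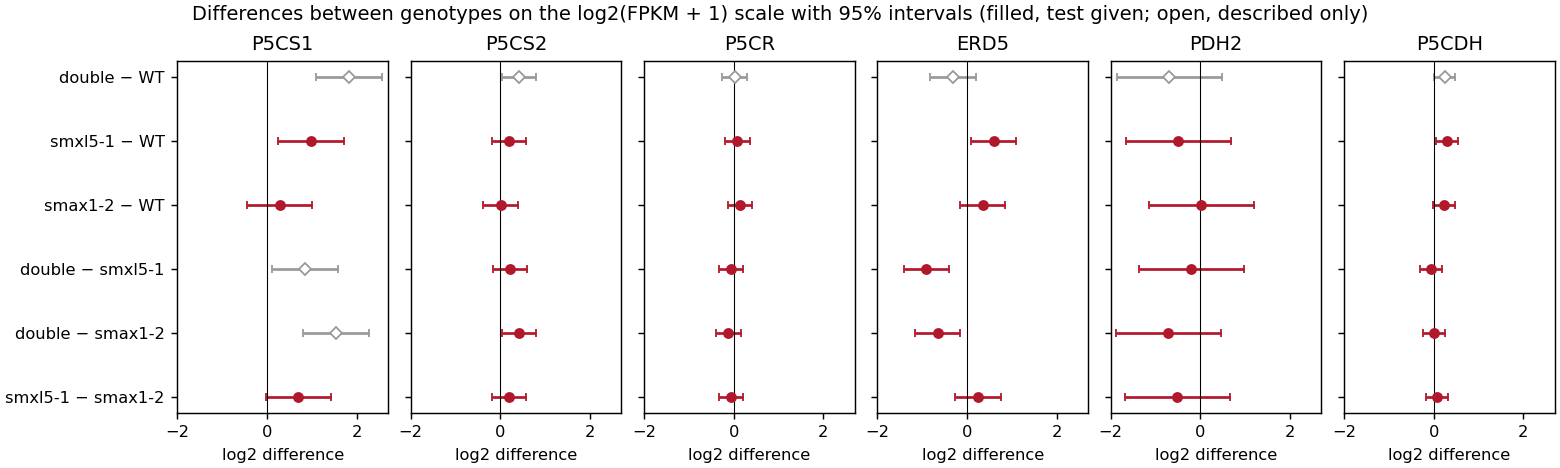
Log2 differences between genotypes for the 6 genes of proline metabolism, with 95% intervals from the fit over 12 libraries; filled points have a test and open points are described only. The ERD5 interval lies below 0 for the double mutant against smxl5-1 (-1.41 to -0.40) and against smax1-2 (-1.16 to -0.15), and P5CR stays near 0 throughout.

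AT2G39795, the neighbour of P5CS1, was unlisted in all 3 double mutant libraries and in smxl5-1 replicate 2. It was at 22.5 and 23.7 FPKM in smxl5-1 replicates 1 and 3, at 22.1, 24.0 and 23.6 FPKM in smax1-2, and at 20.5, 22.2 and 24.9 FPKM in WT. The 4 libraries without it are the 4 with the highest P5CS1 levels, and the 8 with it agree within a 1.21-fold range. Each of its 8 pieces, 866 to 947 bases long against a reference of 926 bases, was in the class that marks a matching intron chain. With the unlisted library taken as 0, smxl5-1 differed from WT by -1.49 (95% interval -3.65 to 0.66), and by 0.04 (adjusted p = 0.935 by limma) without replicate 2.

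AT3G55605, the neighbour of P5CS2, was unlisted in all 3 double mutant libraries and in no other. It was at 16.1, 10.3 and 18.5 FPKM in smxl5-1, 13.4, 15.6 and 16.0 FPKM in smax1-2, and 12.8, 15.5 and 13.96 FPKM in WT. The lowest listed value was in smxl5-1 replicate 2, the library with the highest P5CS2 level. The log2 difference from WT was 0.05 in smxl5-1 (95% interval -0.37 to 0.47) and 0.08 in smax1-2 (95% interval -0.34 to 0.51). All 9 pieces, 862 to 964 bases long against a reference of 938 bases, were in the class of a matching intron chain.

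The pieces themselves were checked, since converging genes can share reads and the library strand protocol is not given in the sources used here. All 103 pieces of the 8 members belonged to the classes used, so no member signal sat in an intronic, antisense or run-on class. P5CS1 pieces in the double mutant were 2471 to 2717 bases long, against references of 2623 and 2886 bases, and none was longer than its reference. The longest P5CS2 piece in the double mutant, at 2594 bases, passed its reference of 2543 bases by 51, and WT replicate 2 held one of 2593 bases. No piece was therefore as long as a P5CS gene and its neighbour joined. Whether reads of the neighbours were counted in the P5CS genes was not tested.

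A sum of FPKM times length over each locus adds all listed pieces, whichever gene they were given to, and an unlisted gene enters it as 0. For P5CS1 and AT2G39795 it was 159, 224 and 187 in the double mutant, 87.4, 194 and 98.5 in smxl5-1, 75.4, 109 and 69.0 in smax1-2, and 63.2, 73.0 and 75.6 in WT, in FPKM times kilobases. The double mutant stayed above WT in all 3 libraries, by a log2 difference of 1.42 in the locus sum where P5CS1 alone gave 1.83. AT2G39795 made up 28.8% to 30.4% of the sum in WT, or 21.0 ± 2.00 FPKM times kilobases (SD, n = 3). The sums averaged 190 ± 32.6 in the double mutant and 70.6 ± 6.57 in WT (SD, n = 3 each), values that include the P5CS1 levels used in the choice and are a description. The P5CS2 and AT3G55605 locus gave a different picture. Its sum was 131, 114 and 119 in the double mutant, 110, 151 and 98.5 in smxl5-1, 112, 96.8 and 103 in smax1-2, and 110, 99.0 and 101 in WT. The double mutant was above all WT libraries, by a log2 difference of 0.23, and AT3G55605 made up 11.1% to 14.7% of the sum in WT.

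**Figure D4:**
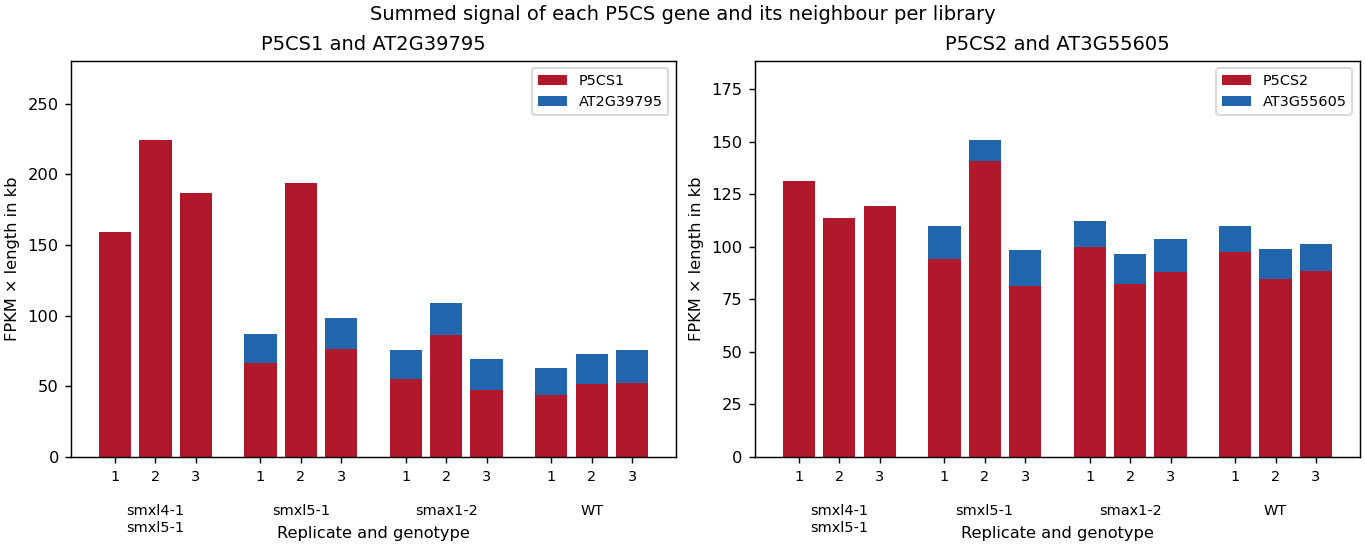
Sum of FPKM times length in kilobases per library over a P5CS gene (red) and its neighbour (blue), replicates 1 to 3 of the double mutant, smxl5-1, smax1-2 and WT. The P5CS1 locus reached 159 to 224 in the double mutant and 63.2 to 75.6 in WT, and the neighbours contribute nothing in the double mutant.

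Both neighbours belong to the few well expressed genes that the double mutant's tables do not list. Of 9588 genes at 10 FPKM or more in every WT library, 7 (0.0730%) were unlisted in all 3 double mutant libraries, and AT2G39795 and AT3G55605 are 2 of them. The annotation holds 2364 converging protein-coding pairs with overlapping ends, with a median overlap of 83 bases. In 447 of these pairs both genes reached 10 FPKM in every WT library, and in 3 (0.671%) 1 gene was unlisted throughout the double mutant. The P5CS1 and P5CS2 pairs are 2 of these 3. Their neighbours were chosen for their levels in the double mutant, so this share is a description. Across other converging pairs, 327 cases were found in 158 gene pairs, so 1 pair can count more than once. In each case 1 gene was unlisted in a library while its partner was listed in all 12. The partner was higher there than in the libraries that listed both genes in 74.9% of the cases, by a median log2 difference of 0.20. At P5CS1 the same measure was 1.5, 1.96 and 1.70 in the double mutant and 1.76 in smxl5-1 replicate 2, and at P5CS2 it was 0.53, 0.36 and 0.41 in the double mutant. The members were chosen with their double mutant levels known, so these values are a description.

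Of the 7 other genes of the mitochondrial glycoprotein family, all of which were tested, none passed in any comparison. AT4G31930 had the smallest p in all 3 comparisons with WT (log2 difference 0.25 in the double mutant, adjusted p = 0.537 by limma). The median log2 difference of the 7 from WT was -0.03 in the double mutant, against 0.07 for all genes. AT2G41600, at 28.4 to 46.4 FPKM in the double mutant and 33.4 to 40.5 FPKM in WT, reached 108 FPKM in smax1-2 replicate 2. All 7 were listed in every double mutant library.

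Next to P5CS1, AT2G39782, AT2G39790 and eIF6B were unlisted in every library, AT2G39805 was at 11.7 to 12.7 FPKM in the double mutant and 12.5 to 13.4 FPKM in WT, and HOS1, a ubiquitin ligase of cold signalling, was at 9.86 to 11.3 FPKM in the double mutant and 7.39 to 9.12 FPKM in WT. Next to P5CS2, AT3G55590 was unlisted, and AT3G55600, eIF6A, DFD and AT3G55640 were listed in all 12 libraries. None of the 6 flanking genes tested passed in any comparison; the smallest adjusted p was 0.0820, for AT2G39805 in the double mutant against smxl5-1 (log2 difference -0.32). The translation factor gene eIF6A stood at 37.7 FPKM in smxl5-1 replicate 2 and at 66.4 to 87.2 FPKM in the other 11 libraries.

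Across the 34 tests given for members none passed at an adjusted p under 0.05, while 6 had an unadjusted p under 0.05. By comparison, none of 5 members tested passed in the double mutant against smxl5-1, where 2.99% of all 19656 genes passed, and none of 5 against smax1-2, where 1.55% passed. None of 8 passed in smxl5-1 against WT (0.351% of all genes), in smax1-2 against WT (0.0356%) or in smxl5-1 against smax1-2 (0.224%). The unadjusted 0.05 was passed by 1 of 5 members in the double mutant against smxl5-1 (17.1% of all genes), by 2 of 5 against smax1-2 (11.9%), by 3 of 8 in smxl5-1 against WT (12.2%), and by none in smax1-2 against WT (6.77%) or smxl5-1 against smax1-2 (11.8%). Among members given a test, the libraries of the groups were fully apart for 1 of 5 between the double mutant and smxl5-1 (20.4% of all genes), 2 of 5 between the double mutant and smax1-2 (17.9%), 2 of 8 between smxl5-1 and WT (19.0%), 1 of 8 between smax1-2 and WT (17.3%) and 0 of 8 between smxl5-1 and smax1-2 (18.0%). Between the double mutant and WT they were apart for 5 of 8 members, the comparison used in the choice, where 19.1% of all genes were apart and 1.13% passed.

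Other genes around the pathway were taken from a list of 34, of which 29 had a value. The list covers other routes to P5C, proline and amino acid transporters, regulators of the proline genes, and enzymes that supply or use glutamate. The bZIP factors bZIP1, bZIP2, bZIP11 and bZIP53 and the factor MYB2 were unlisted in all 12 libraries. In the double mutant against WT 1 of 29 passed, lower, and 7 had an unadjusted p under 0.05 (11.9% of all genes did). The median log2 difference was 0.06, against 0.07 over all genes. In smxl5-1 against WT 1 passed, lower, with a median of 0.13 against 0.07, and 10 had an unadjusted p under 0.05 (12.2% of all genes). In the double mutant against smxl5-1 2 passed, both lower, with a median of -0.18 against -0.01, and 10 had an unadjusted p under 0.05 (17.1% of all genes). None passed in smax1-2 against WT, the double mutant against smax1-2 or smxl5-1 against smax1-2, where 3, 8 and 7 had an unadjusted p under 0.05 (6.77%, 11.9% and 11.8% of all genes).

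The regulator that passed against WT was bZIP9, a group C bZIP factor. It was at 20.6, 24.7 and 22.7 FPKM in the double mutant, 21.3, 24.8 and 22.2 FPKM in smxl5-1, 31.0, 34.2 and 32.2 FPKM in smax1-2, and 40.8, 36.8 and 51.6 FPKM in WT. The carriers of smxl5-1 lay below all smax1-2 libraries, which lay below all WT libraries. SUC2, the sucrose transporter of phloem companion cells and the 1 phloem marker examined, was at 25.4 to 31.1 FPKM in the double mutant, 22.3 to 34.6 FPKM in smxl5-1, 35.6 to 46.3 FPKM in smax1-2 and 37.6 to 42.4 FPKM in WT, also lower in the carriers, and its part in the bZIP9 difference was not tested. The log2 difference of bZIP9 from WT was -0.89 in the double mutant (adjusted p = 0.0087 by limma) and -0.88 in smxl5-1 (adjusted p = 0.0216, lost in the fits without smxl5-1 replicate 1 or 3 or WT replicate 1, up to 0.0918). Under the other alternatives run the adjusted p rose to 0.142 in the double mutant and 0.268 in smxl5-1. In smax1-2 the log2 difference of bZIP9 was -0.38 (adjusted p = 0.644). bZIP25, of the same group, was lower in the double mutant, at 29.8 to 32.7 FPKM, than in smxl5-1, at 40.1 to 46.8 FPKM (log2 difference -0.43, adjusted p = 0.0181). This call held in all 12 fits with a library left out, but its adjusted p rose to 0.564 under the other alternatives run. bZIP63, a factor of the low-energy response that is known to act on ERD5, was at 26.5 to 39.4 FPKM in the double mutant and 62.9 to 65.6 FPKM in WT, and did not pass (log2 difference -0.93, adjusted p = 0.0602).

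Among enzymes of glutamate supply and use, GDH2, a glutamate dehydrogenase, fell in the double mutant relative to smxl5-1. It was at 64.8, 53.1 and 61.9 FPKM in the double mutant, 122, 168 and 108 FPKM in smxl5-1, 95.4, 94.0 and 103 FPKM in smax1-2, and 79.4, 68.9 and 85.8 FPKM in WT. The double mutant lay below every other library and smxl5-1 above every other, the same order of double mutant and smxl5-1 as for ERD5. The log2 difference of the double mutant from smxl5-1 was -1.11 (adjusted p = 0.00634 by limma, up to 0.0902 under the alternatives run) and from smax1-2 -0.70 (adjusted p = 0.0576). GDH1 had 16.9 to 21.2 FPKM in the double mutant and 25.9 to 35.4 FPKM in smxl5-1 (adjusted p = 0.0561). Glutamine synthetase GLN1-1 was at 74.9 to 87.1 FPKM in smxl5-1 and 45.8 to 56.0 FPKM in WT, a log2 difference of 0.70 that did not pass (adjusted p = 0.0708).

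No transporter or gene of the ornithine route passed in any comparison. AAP1, an amino acid permease, was at 28.4 to 31.9 FPKM in the double mutant and 18.4 to 22.4 FPKM in WT (log2 difference 0.55, adjusted p = 0.0595 by limma), and LHT1 at 8.3 to 13.9 FPKM in the double mutant (adjusted p = 0.335 against WT), 12.1 to 15.8 FPKM in smxl5-1 (log2 difference 0.91, adjusted p = 0.151 against WT) and 5.14 to 8.22 FPKM in WT. OAT, ornithine aminotransferase, was at 15.8 to 17.0 FPKM in the double mutant, 18.9 to 22.9 FPKM in smxl5-1, 15.9 to 17.9 FPKM in smax1-2 and 15.0 to 17.7 FPKM in WT, and its difference between smxl5-1 and smax1-2 did not pass (adjusted p = 0.258). AAP6 was at 2.43 to 4.19 FPKM in smxl5-1 and 4.58 to 11.2 FPKM in smax1-2 (log2 difference -1.01, adjusted p = 0.219), and PROT3, a proline transporter, at 0 to 1.26 FPKM in the double mutant and 3.19 to 5.59 FPKM in smax1-2 (log2 difference -1.76, adjusted p = 0.366). HY5, a light regulator that is known to bind the P5CS1 promoter, was at 18.0 to 21.3 FPKM in the double mutant, 21.3 to 23.5 FPKM in smax1-2 and 17.5 to 20.3 FPKM in WT, and passed in no comparison.

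**Figure D5:**
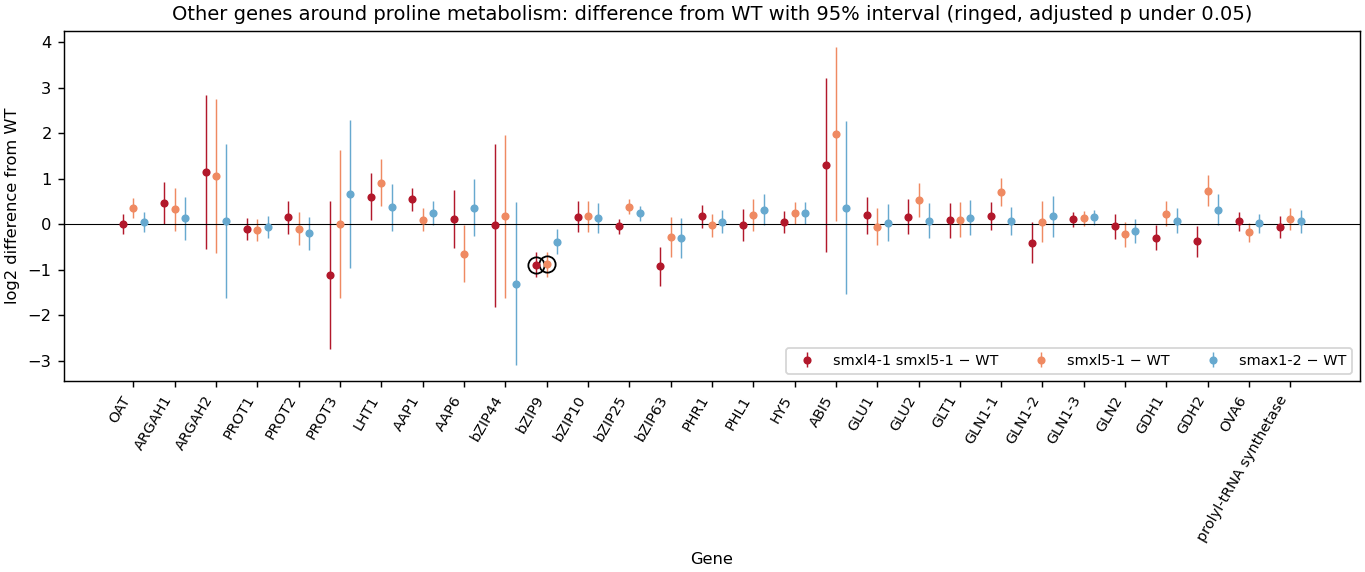
Log2 difference from WT of 29 genes around proline metabolism in the double mutant, smxl5-1 and smax1-2, with 95% intervals; rings mark an adjusted p under 0.05. Only bZIP9 is ringed, at -0.89 in the double mutant and -0.88 in smxl5-1.

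Of 6 dehydration and abscisic acid response genes set beside P5CS1, COR15A, which encodes a chloroplast protein of cold tolerance, rose in the double mutant to 25.9, 54.9 and 37.3 FPKM, against 4.08, 3.27 and 3.52 FPKM in WT (log2 difference 3.07, adjusted p = 0.000952 by limma). COR15A in the double mutant also rose against smxl5-1 (adjusted p = 0.00258) and smax1-2 (adjusted p = 0.00326). ERD10 fell in the double mutant against smxl5-1 (log2 difference -0.51, adjusted p = 0.0228), a call lost without double mutant replicate 3 or smxl5-1 replicate 2 or 3 (up to 0.0907). The other 4 genes passed in no comparison. In the double mutant against WT 5 of the 6, all 5 higher, had an unadjusted p under 0.05 (11.9% of all genes). The median log2 difference of the 6 was 1.41, against 0.07 over all genes. Against smax1-2 all 6 had an unadjusted p under 0.05 (11.9% of all genes), with ERD10 lower and a median of 1.24 against -0.03. Against smxl5-1 3 did (17.1% of all genes), with ERD10 lower and a median of 0.70 against -0.01. The 6 genes were listed with earlier results of these data known, and named after their values were seen. Their p values, counts and medians are therefore a description. In smxl5-1 replicate 2, where P5CS1 was high, COR15A was at 6.24 FPKM, within the range of 3.95 to 7.1 FPKM in smxl5-1, and not among its values in the double mutant. RD29A (18.0 FPKM), RAB18 (24.0 FPKM) and ERD10 (109 FPKM) were at their highest of smxl5-1 in that library. RD29B (1.28 FPKM) and RD20 (8.49 FPKM) were at their lowest of smxl5-1. RD29A and RAB18 lay there within their double mutant ranges (12.2 to 18.6 and 15.5 to 38.7 FPKM), as they did in smxl5-1 replicate 3. ARGAH2, an arginase gene of the pathway list, was at 717 FPKM in that library and at 70.1 to 376 FPKM in the other 11.

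The genes whose levels followed P5CS1 most closely over the 12 libraries, among 15480 with a mean of at least 5 FPKM, were ABI1 (Pearson r = 0.95), UVR8 (0.94), AT1G21590 (0.94), AT3G46450 (0.93) and GGH2 (0.92). ABI1, a protein phosphatase of abscisic acid signalling, was at 30.4 to 35.8 FPKM in the double mutant, 26.2 to 35.1 FPKM in smxl5-1, 19.4 to 21.4 FPKM in smax1-2 and 17.6 to 19.3 FPKM in WT. UVR8, the UV-B photoreceptor, spanned a narrower range, 51.4 to 52.1 FPKM in the double mutant and 45.2 to 46.6 FPKM in WT. The genes most like P5CS2 were SIGE, AT3G50840, YAK1, MLP168 and CYP71B2 (r = 0.90 to 0.92). Those most like ERD5 were UGE1 (r = 0.94), AT2G27080 (0.94), AT5G57655 (0.92), AT1G47310 (0.92) and AT3G19850 (0.91). UGE1, a UDP-glucose epimerase, was at 24.98 to 31.04 FPKM in the double mutant, 42.8 to 45.7 FPKM in smxl5-1, 28.8 to 39.4 FPKM in smax1-2 and 28.6 to 38.2 FPKM in WT. The AT5G57655 gene, annotated as a xylose isomerase, was at 34.8 to 39.0 FPKM in the double mutant and 64.9 to 84.1 FPKM in smxl5-1. These correlations were picked as the highest of many and are a description.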

How the data were processed

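Per the labels' protocols, poly-A RNA of pooled seedlings was sequenced with an NEB library kit. Reads were mapped with TopHat2 2.0.14 to TAIR10, per the submitters' processing notes; the sources used here give no assembler version, fragment number or strand setting. The authors deposited 1 table per library of assembled transcript pieces with FPKM values, their confidence bounds, coverage, percent of the major isoform (FMI) and lengths. The deposited coverage signal was 1.05 to 1.22 times FPKM, by a constant in each library, and was used only for that check; FMI percent values deposited by the authors were not used further.

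A gene's level is the sum of FPKM times the smaller of piece and reference length over reference length, for pieces of classes =, c, j, e and o, 97.7% of 353616 pieces. Levels were tested as log2(FPKM + 1) with limma 3.58.1 (R 4.3.3) in 1 fit of 12 libraries and 4 genotypes, for the 19656 genes reaching 1 FPKM in 3 or more libraries, with Benjamini-Hochberg adjustment and a threshold of 0.05. Fold changes on this scale understate those of low genes. On simulated data for the double mutant against WT (19458 genes), 79 of 100 genes changed by a log2 difference of 1 and 92 of 100 changed by 2 were called, and 13 of 19258 unchanged ones. The changed genes were drawn only from the better expressed genes, and the simulated noise was independent between libraries, without split pieces. These counts therefore do not cover low genes such as PDH2 or genes whose pieces split. Locus sums add FPKM times full piece length in kilobases.

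The members and lists were chosen with earlier results of these data known. Pathway and family genes are named by the 4 smallest p per comparison, and all flanking genes are named. The 5 genes most like P5CS1, P5CS2 and ERD5 are given. The 6 dehydration genes, ARGAH2 and AT2G41600 were named after their values were seen. So were the tissue markers IRT1, EXPA7, RHD6, RCA, CAB3 and CRA1. The tables hold no coordinates; those printed come from the TAIR10.1 RefSeq annotation, which pairs 20435 of 20869 genes by locus tag. The replicates are labelled biological, and nothing else says how they were grown apart.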

Additional observations from a re-analysis of the deposited data

How the results depend on the processing

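The count of genes called moved most with how pieces were weighted. With effective lengths it was 350 for the double mutant against WT, 126 for smxl5-1 against WT, 14 for smax1-2 against WT, 1069 for the double mutant against smxl5-1 and 90 for smxl5-1 against smax1-2, where full lengths gave 223, 69, 7, 588 and 44. With the plain sum of FPKM it was 58, 9, 80, 77 and 13 for the double mutant against WT, smxl5-1 against WT, the double mutant against smxl5-1, the double mutant against smax1-2 (304 with full lengths) and smxl5-1 against smax1-2. Quantile normalization gave 37 for smxl5-1 against WT, and no filter gave 11 for smax1-2 against WT. Leaving out 1 library gave 89 to 284, 18 to 79, 3 to 8, 192 to 526, 113 to 361 and 13 to 37 calls in the order double mutant, smxl5-1 and smax1-2 against WT, the comparisons of the double mutant with smxl5-1 and with smax1-2, and smxl5-1 against smax1-2. Of the members, 1 (ERD5) was called in the double mutant against smxl5-1 with effective lengths and 0 to 1 with a library left out, and 0 in the other 4 comparisons under every setting run.

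In the pathway list, effective lengths gave 3 calls in the double mutant against WT, 2 in smxl5-1 against WT, 5 between the double mutant and smxl5-1 and 2 between it and smax1-2, and median-of-ratios scaling gave 2 in the double mutant against WT. With a library left out the counts were 1 to 2, 0 to 2, 2 to 3 and 0 to 1 in these comparisons, 0 to 1 in smxl5-1 against smax1-2 and 0 in smax1-2 against WT. Effective lengths called 1 flanking gene in the double mutant against smxl5-1; the 7 other mitochondrial glycoprotein genes gave 0 calls throughout. Of the 34 tested member differences, 14 kept their sign under every setting run and 20 changed it under at least 1; none of these 20 was called. The plain sum of FPKM turned ERD5 in smxl5-1 (-0.33) and smax1-2 (-0.55) against WT, P5CS1 (-0.015) and PDH2 (-0.12) in smax1-2 against WT, P5CS2 in the double mutant against smax1-2 (-0.024) and smxl5-1 (-0.57), and P5CDH in the double mutant against smxl5-1 (0.16) and in smxl5-1 against smax1-2 (-0.033). Median-of-ratios scaling turned 4 differences, P5CS2 (-0.074), PDH2 (-0.019) and AT2G39795 (-0.032) in smax1-2 against WT and AT3G55605 in smxl5-1 against WT (-0.023). Quantile normalization turned the same 4 (-0.053, -0.22, -0.038 and -0.051) and AT3G55605 in smax1-2 against WT (-0.025). Effective lengths turned P5CS2 in smax1-2 against WT (-0.0079) and P5CDH in the double mutant against smax1-2 (-0.00047), and no upper limit on length turned P5CS2 in smax1-2 against WT (-0.0027).

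Leaving out 1 library changed the sign of 14 member differences, 8 of them without smxl5-1 replicate 2. In smxl5-1 against WT the ranges were -2.28 to 0.036 for AT2G39795, -0.11 to 0.28 for AT3G55605 and -0.029 to 0.36 for P5CS2. In smax1-2 against WT they were -0.070 to 0.068 for P5CS2, -0.23 to 0.41 for PDH2 and -0.016 to 0.12 for AT2G39795. Between the double mutant and smxl5-1 they were -0.18 to 0.014 for P5CR, -0.64 to 0.043 for PDH2 and -0.12 to 0.048 for P5CDH, and between the double mutant and smax1-2 -0.056 to 0.071 for P5CDH. Between smxl5-1 and smax1-2 they were -0.035 to 0.35 for P5CS2, -0.13 to 0.059 for P5CR, -0.036 to 0.13 for P5CDH and -0.20 to 0.20 for AT3G55605. The cause of these changes was not tested. The locus sums moved by less than the spread between replicates under the 3 alternatives run.

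With the replicate number as a block, 125, 25, 4, 225, 153 and 20 genes were called in the same order of comparisons and 0 pathway genes in smxl5-1 against WT; ERD5 in the double mutant against smxl5-1 had an adjusted p of 0.12 under the replicate block. Deviations of same-numbered libraries correlated at -0.102 to 0.0671, and 2 of 12 libraries correlated best with their own number. Correlations this weak cannot tell whether the numbers pair the samples. The file names exchange replicates 1 and 2 of the double mutant relative to the titles followed here. With the file names' numbers the correlations were -0.0807 to 0.167, 1 of 18 pairs over 0.1, 5 of 12 libraries correlated best with their own number, and the replicate block, an alternative added after seeing the data, called 146, 23, 4, 313, 188 and 26 genes and 0 pathway genes in smxl5-1 against WT. Depth could not be weighed, and PDH2, at 0 to 2.72 FPKM, lies too low for a difference to show.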
